A study of Mus musculus with 8 samples.

Results

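The genes described here encode the enzymes that write, oxidise and remove methyl groups on cytosine in DNA. They are Tet1, Tet2 and Tet3, which encode the dioxygenases that oxidise 5-methylcytosine, Dnmt1, Dnmt3a and Dnmt3b, which encode DNA methyltransferases, and Tdg and Mbd4, which encode DNA glycosylases that cut out damaged or oxidised bases opposite guanine. The set was named by function around Tet1, which had itself been picked from its lower values in the arrays of the knockout. The 8 genes are therefore a set chosen on the contrast of the study for Tet1, and on function for the other genes. For each gene the transcript row with the highest mean over the 8 arrays was taken, and each gene found had 1 row. Of the 8 genes, 7 had a row, out of 19505 genes named in the table, and 6 of these were bright enough to enter the fit with 9920 genes. Dnmt3b has a row that was too dim, and Tdg was not analysed here.

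The samples were leukaemia stem cells of mice, taken as GFP-positive granulocyte-macrophage progenitors (GMPs) from the marrow of recipients of transplanted cells. All of them carried the fusion oncogene MLL-AF9, named in the labels as MA9 or MLLAF9, which drives a myeloid leukaemia. The groups were 3 arrays of Pik3ca-/- cells (KO) and 5 arrays of WT cells, and the Pik3ca gene specifies p110-alpha, a catalytic subunit of phosphoinositide 3-kinase. The labels give no age, no time after transplantation, no Cre line and no number of mice behind an array, so a p-value covers only the variation among these arrays, part of which may be technical. All values below are log2 array values, where a difference of 1 is a factor of 2, and levels of different genes are not set against each other because probes differ in brightness.

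DNA methylation at CpG dinucleotides is copied at each replication by DNMT1, which acts on hemimethylated DNA, and is set at new places by DNMT3A and DNMT3B. TET enzymes turn 5-methylcytosine into 5-hydroxymethylcytosine and further oxidised forms, using oxygen, iron and 2-oxoglutarate. TDG excises the most oxidised forms, and base excision repair then puts back an unmodified cytosine. MBD4 acts on thymine or uracil left by deamination of cytosine at CpG sites. In blood, TET2 and DNMT3A are frequent sites of mutation in myeloid disease, and TET1 has been described as a direct target of MLL fusion proteins that is raised in leukaemias with an MLL rearrangement.

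Because CpG sites are the substrate of all these enzymes, the CpG sites upstream of the gene on which the results turn are shown. The RefSeq promoter table of GRCm38.p6 held 12 windows of 300 bases for the 8 genes, each reaching from 250 bases before a start site to 50 after it. The Tet1 window held 17 CpG sites, more than 68.6% of the 32851 windows in that table, whose median was 7. The part upstream of the start lies at chr10:62887325-62887574 on the minus strand and is printed 5′ to 3′ with its 15 CpG sites in capitals.
Tet1: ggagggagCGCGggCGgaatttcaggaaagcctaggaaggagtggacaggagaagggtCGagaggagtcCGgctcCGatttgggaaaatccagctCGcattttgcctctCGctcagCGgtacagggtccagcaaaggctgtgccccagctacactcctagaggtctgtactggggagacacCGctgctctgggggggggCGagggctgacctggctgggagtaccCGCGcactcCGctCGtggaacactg
The Tet2 window was far denser, with 57 CpG sites, more than 99.8% of windows, while the Tet3 window held 22. The Tdg and Mbd4 windows held 26 and 25 CpG sites, that of Dnmt3b held 30, the 3 windows of Dnmt3a held 46, 47 and 18, and those of Dnmt1 held 33, 12 and 2. No methylation was measured in this series, so these counts describe the sequences alone.

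One array stood apart before any gene was compared. Over the 9920 tested genes, WT array 3 had a mean correlation of 0.921 with the other arrays, against 0.968 to 0.972 for the rest, and 3620 of those genes were lowest on it. Positive control rows lay above negative ones in a share of 0.858 of pairs there, against 0.894 to 0.934 on the rest. Differences and correlations that rest on WT array 3 are therefore also given without it. Pik3ca itself was 9.15 ± 0.36 (SD, n = 3) in the KO arrays and 9.31 ± 0.51 (SD, n = 5) in the WT arrays, a difference of -0.16. Without WT array 3 the WT mean was 9.54 ± 0.05 (SD, n = 4) and the difference -0.39, and the KO values of 8.73, 9.31 and 9.40 then all lay below the remaining WT values of 9.48 to 9.58, as 2.93% of all tested genes did. The Pik3ca row lay above the 95th percentile of the negative control rows, described below, on 1 of 8 arrays. The deleted part of the gene is not named, so the row does not check the labels. All 12 GMP markers were bright enough to be tested, and their mean level was 14.1 to 14.3 in the KO arrays and 14.1 to 14.4 in the WT arrays. The GMP marker farthest from 0 was Cd34, a surface protein gene of early progenitors, which was 5.63, 7.81 and 7.42 in KO arrays 1 to 3 and 9.49, 7.24, 10.94, 9.08 and 8.01 in WT arrays 1 to 5. The means of 6.95 ± 1.16 (SD, n = 3) and 8.95 ± 1.42 (SD, n = 5) were farther apart than those of Tet1. The difference was -1.50 without WT array 3, the highest array, and -1.34 without KO array 1, and with all arrays Cd34 did not pass over all genes in limma (adjusted p = 0.998). Its part in the results on the enzyme genes was not tested.

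Tet1 was lower in every KO array than in any WT array. Its log2 values were 6.69, 6.19 and 5.62 in KO arrays 1 to 3. In WT arrays 1 to 5 they were 8.03, 7.06, 7.21, 7.69 and 8.08. The highest KO value lay 0.36 below the lowest WT value, and within each group the arrays spanned about 1 unit, with a range of 1.08 in KO and 1.02 in WT. The means were 6.17 ± 0.54 (SD, n = 3) and 7.61 ± 0.47 (SD, n = 5), which gives a difference of -1.45 with a standard error of 0.34. Only 24 of the 9920 tested genes, Tet1 included, had a difference as low or lower. Tet1 was picked from this contrast, so its difference is a description and carries no test.

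WT array 3 did not set the Tet1 difference. Its Tet1 value of 7.21 was the second lowest of the WT arrays, and without it the difference was -1.55. Leaving out any 1 of the 8 arrays gave differences from -1.71, without KO array 1, to -1.17, without KO array 3. Tet1 was the 1 gene of the 6 tested whose KO arrays all lay below the WT arrays, where 1.51% of all tested genes did so, and 0 of the 6 had all KO arrays above, against 1.58%. Without WT array 3 the same counts held for these genes, beside 2.93% of all genes below and 2.62% above. Across the whole table limma called 0 of 9920 genes at a Benjamini-Hochberg adjusted p under 0.05 (0%), with 282 at an unadjusted p under 0.05, and 0% again without WT array 3, so 0 of the 6 genes were called either way. The count for Tet1 restates the values that chose it, and nothing is read from it.

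**Figure D1:**
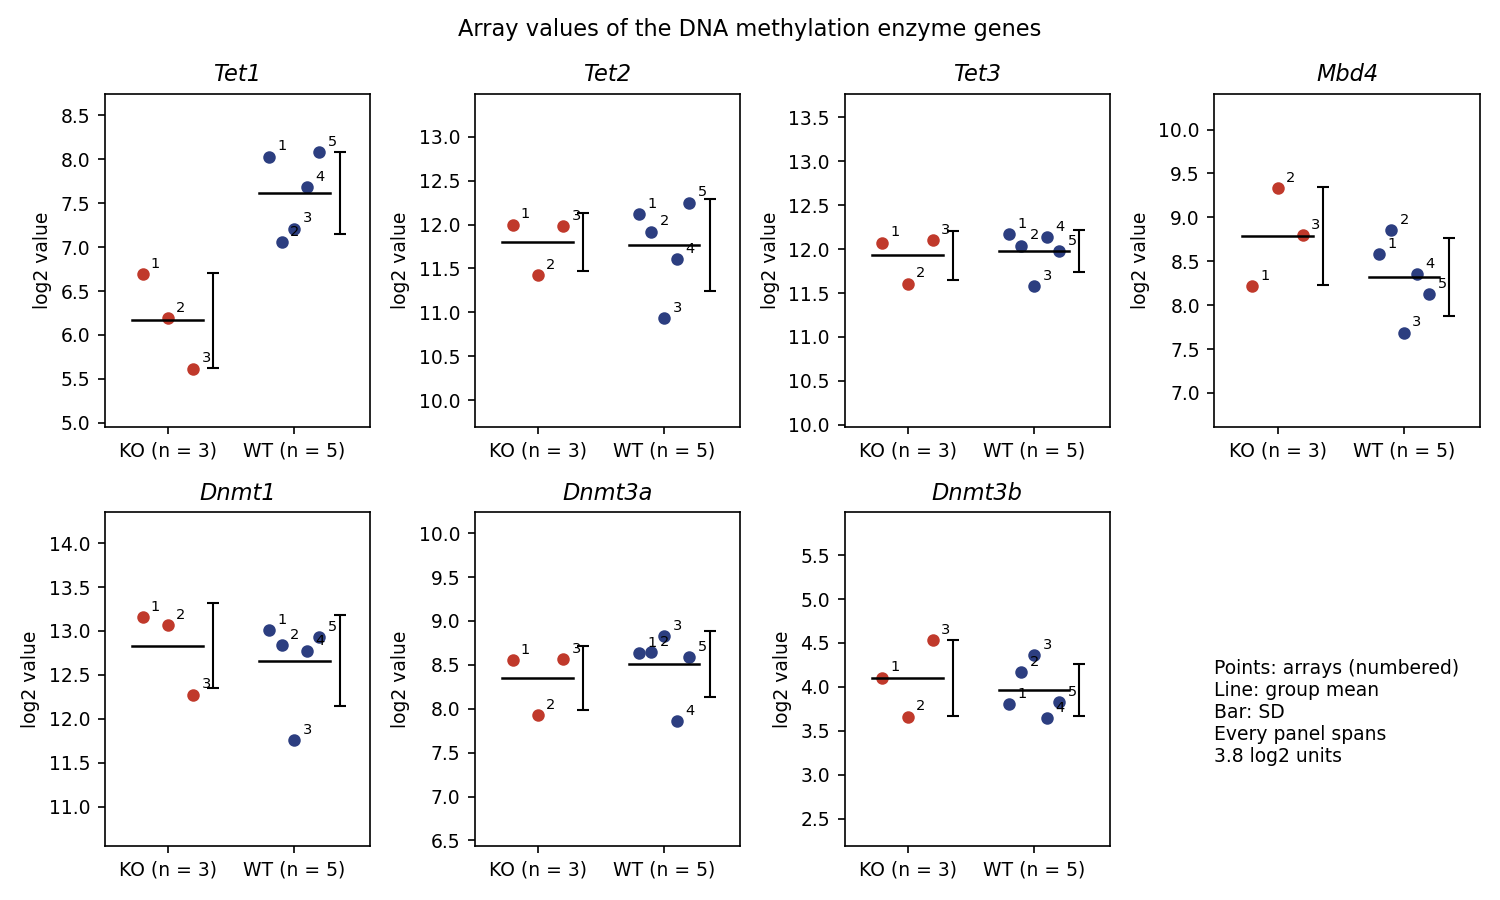
Log2 array values (vertical axis) of the 7 genes with a row, in KO and WT arrays (horizontal axis); points are arrays marked with their replicate number, the line is the group mean and the bar its SD. Tet1 is the gene whose KO and WT points do not overlap, and WT array 3 is the lowest point for Tet2, Tet3, Mbd4 and Dnmt1.

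The Tet1 row was faint. The table holds 23 background rows and 5222 rows named as negative controls, and what the latter match was not stated. The 95th percentile of the negative control rows lay far above the highest background row on every array. These kinds of row therefore do not give the same floor. In KO arrays 1 and 2 Tet1 lay above the highest background row, at 6.69 against 5.97 and at 6.19 against 5.83, and in KO array 3 it lay below it, at 5.62 against 5.82. In all 5 WT arrays it lay above the highest background row, which was at most 5.93 there. Tet1 exceeded 54.1% to 75.9% of the negative control rows in the KO arrays and 73.6% to 87.6% in the WT arrays. It reached their 95th percentile, which was 8.85 to 10.9, on 0 of 8 arrays. KO array 3, where Tet1 was lowest, is thus an array on which the row was not distinguished from background.

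**Figure D2:**
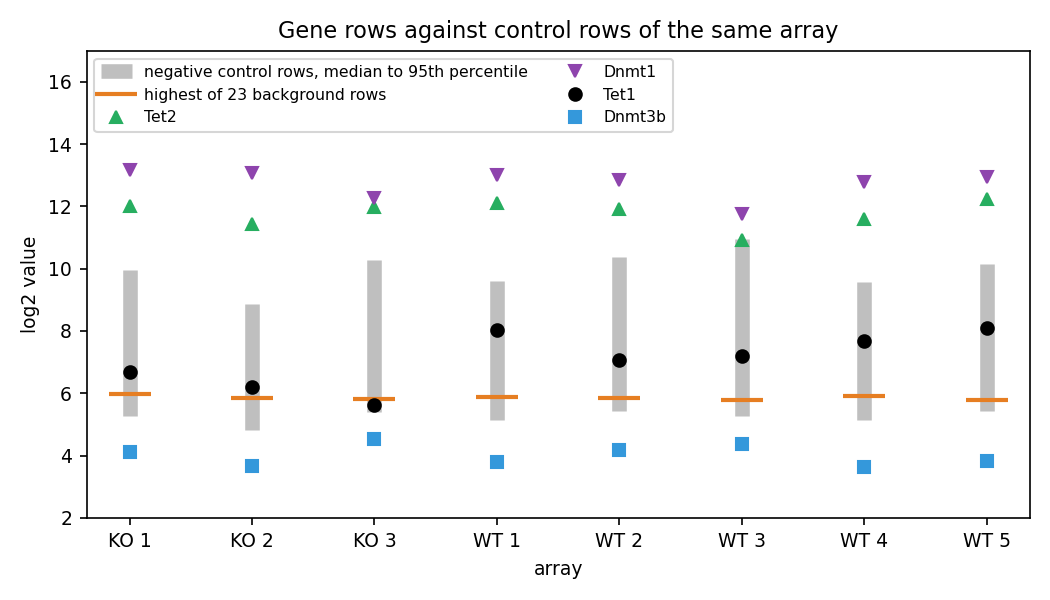
Log2 values (vertical axis) of Tet1, Tet2, Dnmt1 and Dnmt3b on each of the 8 arrays (horizontal axis), with the negative control rows of that array as a grey bar from their median to their 95th percentile and the highest of 23 background rows as an orange mark. Tet1 lies inside the grey bar on every array and falls to 5.62 on KO array 3, under the background mark of 5.82, while Dnmt1 lies above the bar on all 8 arrays and Tet2 on 7.

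The other TET genes did not follow Tet1. Tet2, which encodes the TET enzyme most often mutated in myeloid malignancy, was 12.00, 11.42 and 11.98 in KO arrays 1 to 3. In WT arrays 1 to 5 it was 12.12, 11.92, 10.94, 11.60 and 12.25, so all KO values lay inside the WT range. The means of 11.80 ± 0.33 (SD, n = 3) and 11.77 ± 0.52 (SD, n = 5) differed by 0.04, with a 95% interval from the limma fit of -0.70 to 0.77. Its difference was -0.17 without WT array 3 and -0.02 after quantile normalization. Tet3, which encodes the TET enzyme of the oocyte and of many differentiated cells, was 12.07, 11.61 and 12.11 in KO arrays 1 to 3. In WT it was 12.17, 12.04, 11.58, 12.14 and 11.98. The Tet3 difference was -0.05, with an interval of -0.56 to 0.46, and dropping WT array 3 gave -0.15 and dropping KO array 2 gave 0.11. For both genes the groups overlapped fully and the sign of the difference depended on which array was left out. The intervals still allow differences on either side of 0.

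Mbd4 was the gene with the largest positive difference. It was 8.22, 9.33 and 8.80 in KO arrays 1 to 3 and 8.58, 8.86, 7.69, 8.35 and 8.13 in WT arrays 1 to 5. KO array 2 was the highest of the 8 and WT array 3 the lowest, and the other arrays of the groups were interleaved. Like Dnmt3a, it lay near the negative control rows, above their 95th percentile on 1 of 8 arrays. The means were 8.78 ± 0.56 (SD, n = 3) and 8.32 ± 0.45 (SD, n = 5). The difference of 0.46, with an interval of -0.29 to 1.22, became 0.31 when WT array 3 was dropped, 0.19 when KO array 2 was and 0.75 when KO array 1 was, and it stayed above 0 with any 1 array left out.

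Dnmt1, the maintenance methyltransferase gene, was 13.16, 13.06 and 12.28 in KO arrays 1 to 3. In WT arrays 1 to 5 it was 13.01, 12.84, 11.75, 12.77 and 12.93, so 1 array in each group was low. The means of 12.83 ± 0.48 (SD, n = 3) and 12.66 ± 0.52 (SD, n = 5) differed by 0.17, with an interval of -0.61 to 0.95. Dropping the low WT array 3 took it to -0.06, and dropping the low KO array 3 took it to 0.45. Without WT array 3 the remaining WT arrays were close together, at 12.89 ± 0.11 (SD, n = 4).

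The de novo methyltransferase genes gave no separation. Dnmt3a was 8.55, 7.93 and 8.57 in KO arrays 1 to 3 and 8.63, 8.65, 8.82, 7.86 and 8.58 in WT arrays 1 to 5, with KO array 2 and WT array 4 as the low arrays. The difference was -0.16, with an interval of -0.78 to 0.47, and dropping KO array 2 gave 0.05 and dropping WT array 4 gave -0.32. Dnmt3b, the other de novo enzyme gene, lay between 3.66 and 4.54 in KO and between 3.65 and 4.36 in WT. It was under the median of all rows, which was 5.26 to 5.51, on all 8 arrays, and under the median of the negative control rows on all 8, so no difference was drawn for it.

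**Figure D3:**
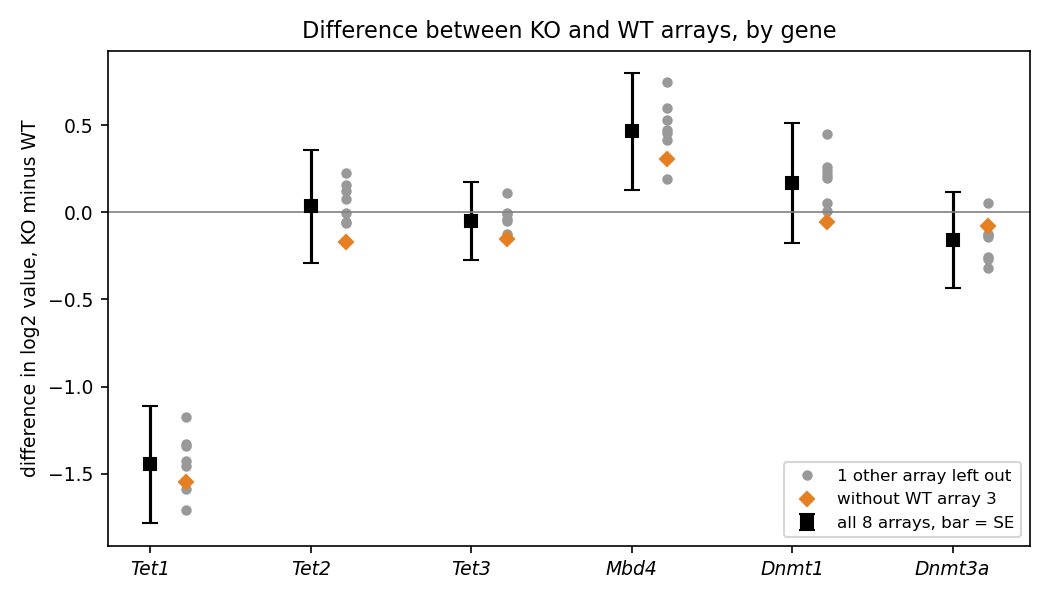
Difference in log2 value, KO minus WT (vertical axis), for the 6 tested genes (horizontal axis). Black squares with standard errors use all 8 arrays, grey points leave out 1 other array and orange diamonds leave out WT array 3; the Tet1 points lie between -1.71 and -1.17, and those of Tet2, Tet3, Dnmt1 and Dnmt3a cross 0.

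Correlations between the tested genes of the set are given as descriptions over 8 arrays, of which WT array 3 stood apart. Tet2 and Tet3 had a Pearson r of 0.79 and a Spearman rho of 0.48, and r was 0.58 without WT array 3. Tet1 had an r of 0.19 with Tet2, 0.23 with Tet3 and 0.19 with Dnmt1, and of 0.39, 0.36 and 0.44 without that array. With Mbd4 its r was -0.50, its rho -0.55 and its r without that array -0.60. Tet2 and Dnmt1 had an r of 0.63, and of -0.06 without that array. The r of Tet3 with Dnmt1, and those of Tet2, Tet3 and Dnmt1 with Mbd4, also went from above to below 0 without it. Tet2 and Dnmt3a had an r of 0.16, and of 0.89 without WT array 3. The values most like Tet1 over the 8 arrays, by Pearson r, belonged to Zfp846 at 0.94, a zinc finger gene, Dmrtb1 at 0.93, Zfyve26 at 0.91, Vdr, the vitamin D receptor gene, at 0.91 and Adipor2, an adiponectin receptor gene, at 0.91. Dmrtb1 was 6.94 ± 0.97 (SD, n = 3) in the KO arrays and 8.32 ± 0.58 (SD, n = 5) in the WT arrays, and Zfp846 was above the median row on only 3 of 8 arrays. Over the 7 arrays without WT array 3 the order began with Gatad2b, which encodes a subunit of the NuRD complex that also holds methyl-CpG binding proteins, at 0.97, and Runx1, which encodes a transcription factor of blood stem cells, at 0.97. Vdr at 0.96, B3gnt5 at 0.95 and Ctdnep1 at 0.94 followed. Gatad2b was 13.57 ± 0.20 (SD, n = 3) in the KO arrays and 14.02 ± 0.16 (SD, n = 5) in the WT arrays, while Runx1, at 12.27 ± 0.21 (SD, n = 3) and 12.55 ± 0.59 (SD, n = 5), had an r of only 0.56 with Tet1 when WT array 3 was kept. For the other genes the closest was C2cd5 for Tet2 at 0.98, Tshb for Tet3 at 0.97, Wdr81 for Dnmt1 at 0.99, 1700109H08Rik for Dnmt3a at 0.96 and Cd9 for Mbd4 at 0.96. With 9920 genes and 8 arrays, high values of r arise for any gene, and nothing is read from them about shared control. Genes chosen for following Tet1 are lower in KO through that choice, so their group means are no further result.

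Dnmt1 is known to be expressed together with replication genes in dividing cells, so it was set against the mean of 17 G1/S and replication genes in each array. That mean was 13.22, 13.42 and 12.91 in KO arrays 1 to 3 and 13.18, 13.12, 12.22, 12.86 and 12.89 in WT arrays 1 to 5. Dnmt1 and this mean had a Pearson r of 0.89, and the exact permutation test (two-sided) gave p = 0.00521, or 0.0313 after adjustment over the 6 genes examined. The Spearman rho was 0.86, with an exact permutation p of 0.0107 and an adjusted p of 0.0643. Without the arrays farthest from the median, WT array 3 and KO array 2, r was 0.62 with an exact permutation p of 0.161, and without WT array 3 alone it was 0.63 with p of 0.116. The relation was therefore not detectable without those arrays. Mbd4 had an r of 0.79 with an exact permutation p of 0.0232, an adjusted p of 0.0697 and an r of 0.14 without the same arrays. Tet2, Tet3, Dnmt3a and Tet1 had r of 0.54, 0.32, -0.42 and -0.20, with exact permutation p from 0.165 to 0.641. Without WT array 3 the r of Tet2 was -0.39, that of Tet3 -0.63, that of Dnmt3a -0.11 and that of Tet1 -0.28, with exact permutation p from 0.111 to 0.887, so the sign for Tet2 and Tet3 turned.

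**Figure D4:**
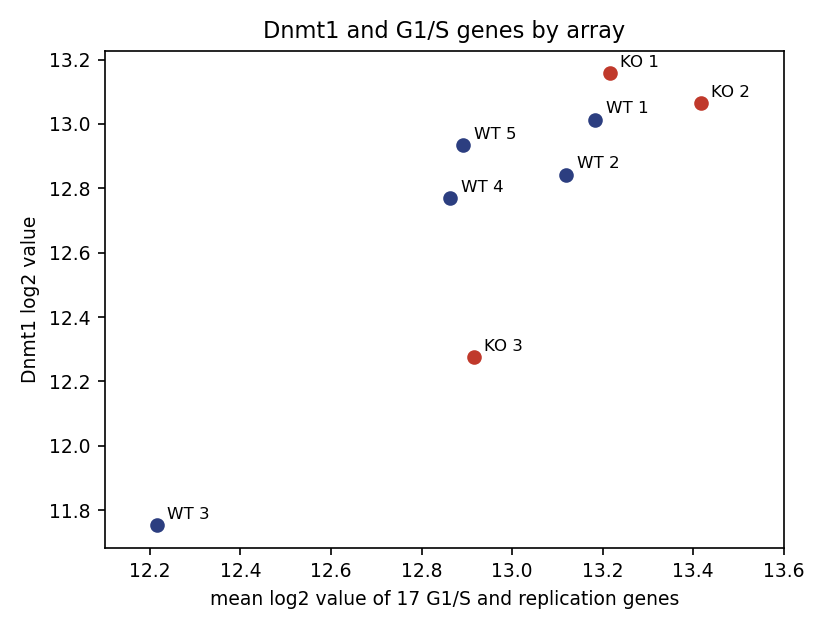
Dnmt1 log2 value (vertical axis) against the mean log2 value of 17 G1/S and replication genes (horizontal axis) on each array, KO in red and WT in blue. WT array 3 lies far to the lower left at 12.22 and 11.75, and KO array 3 has the next lowest Dnmt1 value, 12.28.

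The sequence upstream of Dnmt1 was searched for the core of the E2F motif, since E2F factors drive replication genes in S phase. The pattern was TTTNGCGC, on both strands. It was found in 1 of the 3 Dnmt1 windows, which held 2 matches, and in 0 windows of the other 7 genes. Of all 32851 windows 1.38% held it, and of the 3837 with at least 30 CpG sites 2.61% did. The upstream match, which begins at position -219 relative to the start site of the window with 33 CpG sites, is shown with its flanks in capitals for the 8 matching letters, at chr9:20952824-20952853 on the minus strand.
Dnmt1: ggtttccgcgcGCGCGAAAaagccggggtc
This match is a description of the letters in that window, and no factor binding was measured.

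Around the methylation cycle, 10 related lists held 135 genes, of which 114 had a row and 72 were tested. Limma called 0 of the 72 after adjustment over all genes, with an adjusted p of 0.998 for each gene named below. In that fit 2 of the 72, Gins1 and Igf2r, had an unadjusted p under 0.05, beside 282 of all 9920 tested genes. Nothing is read from that count. All KO arrays lay above all WT arrays for 1 of the 72, Gins1, beside 1.58% of all tested genes, and below for 0, beside 1.51%. The median difference of all tested genes was 0.04, with 5553 above 0 and 4367 below.

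The list of methyl-CpG readers and members of their family, and that of partners of the methyltransferases, had medians above that value, which moved with single arrays. Not every family member need bind methylated DNA. Of 5 tested genes of the first list, 4 were above 0, with a median of 0.20 that was 0.01 without WT array 3. Mbd2, a reader that recruits NuRD, differed by 0.37, or 0.12 once WT array 3 was dropped. Mbd1 differed by 0.20, or 0.01 once that array was dropped. Mbd6, of the same family, differed by -0.45, or -0.01 once that array was dropped, on which it was 12.05 against 9.56 to 10.20 in the other WT arrays. Of 8 tested DNMT partners, 7 were above 0, with a median of 0.25 that dropping WT array 3 took to 0.17 and dropping KO array 2 to 0.13. Hells, a chromatin remodeller needed for methylation of repeats, was 11.98 ± 0.47 (SD, n = 3) in the KO arrays and 11.60 ± 0.28 (SD, n = 5) in the WT arrays, a difference of 0.38 that was 0.18 without KO array 2. Pcna, the sliding clamp that tethers DNMT1 to replication forks, differed by 0.23, or 0.10 once WT array 3 was dropped. Dmap1, a DNMT1-binding protein gene, differed by 0.57, or 0.05 once KO array 3 was dropped, and it was above the median row on 5 of 8 arrays only.

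Of 7 tested TET partners and enzymes that supply or clear related metabolites, 3 were above 0 and 4 below, with a median of -0.04 that dropping KO array 3 took to 0.06. Sin3a, a corepressor gene whose product binds TET1, was 15.23, 15.26 and 14.95 in KO arrays 1 to 3 and 15.58, 15.55, 15.03, 15.46 and 15.59 in WT arrays 1 to 5. Its difference of -0.30 was -0.40 without WT array 3, the 1 WT array that lay inside the KO range. Dcaf1, a substrate receptor of the ubiquitin ligase CRL4, differed by -0.51, or -0.18 once KO array 1 was dropped. Ogt, the O-GlcNAc transferase gene whose product binds TET proteins, differed by 0.32, or 0.11 once KO array 3 was dropped.

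Genes that finish demethylation were mixed. Of 11 tested base excision repair genes, 6 were above 0 and 5 below, with a median of 0.09 that dropping WT array 3 took to -0.01 and dropping KO array 2 to -0.11. Xrcc1, a scaffold of the repair complex, differed by -0.48, or -0.14 once KO array 3 was dropped. Ogg1, a glycosylase for oxidised guanine, differed by 0.66, or 0.15 once KO array 3 was dropped. Fen1, a flap endonuclease, differed by 0.26, or 0.0023 once KO array 2 was dropped. Of 5 tested deaminase and GADD45 genes, 3 were above 0, with a median of 0.01 that dropping WT array 4 took to -0.15. Apobec3, a cytidine deaminase of antiviral defence, was 12.74 ± 0.60 (SD, n = 3) in the KO arrays and 13.48 ± 0.62 (SD, n = 5) in the WT arrays. Its difference of -0.74 became -0.47 when KO array 1 was dropped and -0.51 when WT array 3 was. Gadd45b differed by 0.43, or 0.15 once WT array 3 was dropped, and Apobec1 by -0.22, or 0.02 once WT array 1 was dropped.

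In the methionine cycle, which supplies the methyl donor, 3 of 5 tested genes were above 0, with a median of 0.19 that was 0.01 without WT array 3 and -0.16 over the 7 genes with a row. Mtr, methionine synthase, was 9.90 ± 0.49 (SD, n = 3) in the KO arrays and 10.56 ± 0.54 (SD, n = 5) in the WT arrays, and Mtrr, the reductase that keeps it active, was 7.84 ± 0.34 (SD, n = 3) and 8.41 ± 0.56 (SD, n = 5). The differences were -0.66 and -0.57, and dropping KO array 3 for Mtr and KO array 1 for Mtrr gave -0.42 and -0.43. Dropping WT array 3 gave -0.89 for Mtr and -0.46 for Mtrr. Ahcy, which clears S-adenosylhomocysteine, differed by 0.32, or 0.18 once WT array 3 was dropped.

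**Figure D5:**
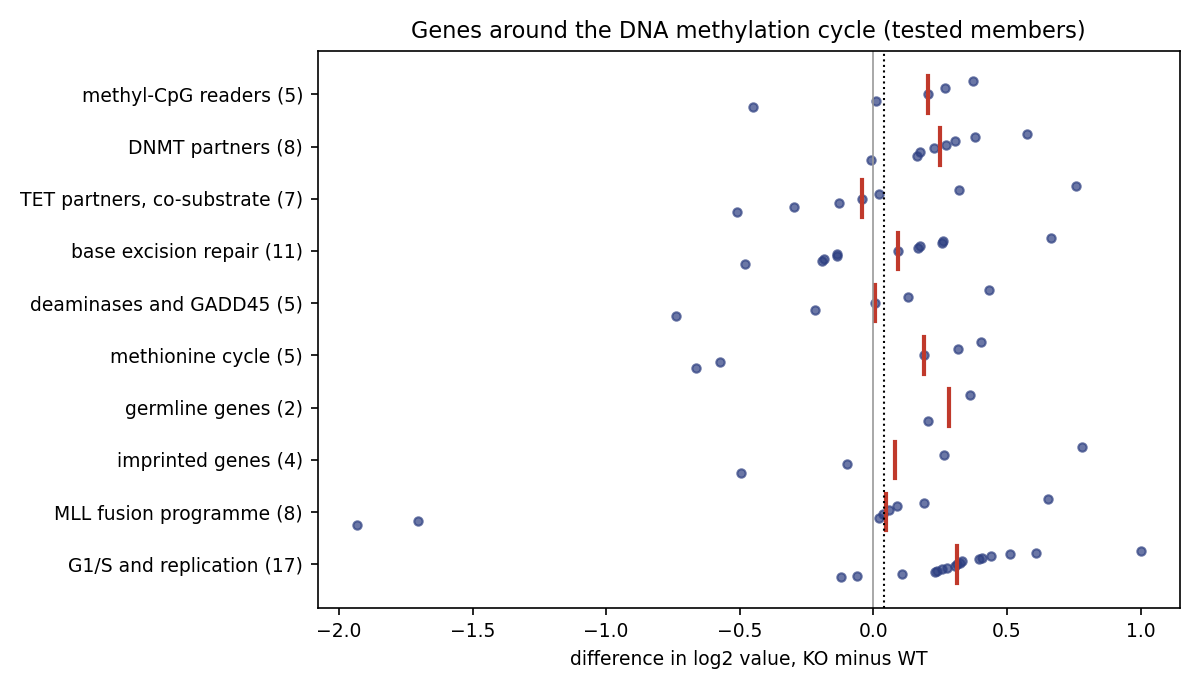
Difference in log2 value, KO minus WT (horizontal axis), for the tested genes of each related list (vertical axis, number tested in brackets); points are genes, red bars the list medians and the dotted line the median of all tested genes, 0.04. List medians lie between -0.04 and 0.31, and the points farthest to the left are Pbx3 and Eya1.

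Germline genes that DNA methylation is known to keep silent gave little signal. Of 17 germline genes with a row, 2 were tested and 12 were under the median row on all 8 arrays. The mean over all 17 was 4.55 to 4.64 in KO arrays and 4.29 to 4.73 in WT arrays, so the groups overlapped. Sycp3, a gene of the meiotic chromosome axis, differed by 0.36, or 0.23 once KO array 3 was dropped, and Zfp42 by 0.20, or 0.02 once that array was dropped. Of 18 imprinted genes with a row, 4 were tested, 2 above 0 and 2 below, with a median of 0.08 that dropping WT array 3 took to -0.07. Igf2r, the receptor gene that clears insulin-like growth factor 2, was 9.52, 9.22 and 9.81 in KO arrays 1 to 3 and 8.67, 9.30, 8.45, 8.22 and 9.02 in WT arrays 1 to 5. Its difference of 0.78 stayed between 0.63 and 0.93 with any 1 array left out, and it did not pass over all genes in limma (adjusted p = 0.998). Ube3a differed by 0.26, or 0.08 once KO array 3 was dropped, and Kcnq1ot1 by -0.50, or 0.11 once KO array 2 was dropped.

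Of the MLL fusion programme, to which Tet1 has been linked, all 8 genes with a row were tested, with 6 above 0 and a median of 0.05 that dropping WT array 3 took to -0.09. Pbx3, a cofactor of HOX proteins, was 6.91, 6.59 and 6.26 in KO arrays 1 to 3 and 8.10, 8.38, 6.66, 11.68 and 7.78 in WT arrays 1 to 5, so WT array 3 fell among the KO values. Its difference of -1.93 was -1.14 without WT array 4 and -2.40 without WT array 3. Hoxa5 differed by 0.66, or 0.45 once WT array 4 was dropped. Eya1, a transcriptional coactivator gene, differed by -1.71, or -0.34 once KO array 1 was dropped. Of 17 tested G1/S and replication genes, 15 were above 0, with a median of 0.31 that was 0.15 without WT array 3. Gins1, a helicase subunit gene, differed by 1.00, or 0.78 once WT array 3 was dropped, Cdc6 by 0.51, or 0.24 once KO array 2 was dropped, and Ccne1 by 0.31, or 0.21 once WT array 5 was dropped.

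Markers of cells other than GMPs were also compared between the groups. Of 8 marker lists, that of GMPs included, 1 had mean levels that did not overlap between the groups, the list for mast cells, basophils and eosinophils. Of single tested genes, 1.51% had all KO arrays below all WT arrays. No such share was drawn for list means, so nothing is read from this count. All 8 genes of that list had a row and 6 were tested, 5 of them below 0 and 1 above. The mean of the 6 was 7.60 to 7.66 in KO and 7.72 to 9.03 in WT. Over all 8 rows the mean was 6.68 to 6.73 in KO and 6.86 to 7.83 in WT. Its highest arrays were WT arrays 4 and 3, through Prg2, an eosinophil granule gene, at 12.84 and 11.98, and Prg3 at 12.44 and 11.61. Hdc, the histidine decarboxylase gene, was the 1 above 0, at 10.65, 9.71 and 7.60 in KO arrays 1 to 3 and 7.17 to 9.16 in WT. Its difference of 0.76 was 0.41 without WT array 3 and 0.10 without KO array 1. Fcer1a and Epx were under the median row on all 8 arrays. The genes of the list did not move together. On WT array 2, Prg2 at 7.14 and Prg3 at 7.03 were at their lowest among the WT arrays, while Cpa3 at 7.59 and Hdc at 9.16 were at their highest. In the list of monocytes and macrophages 2 of 8 tested genes, Ms4a6c and Irf8, had all KO arrays below all WT arrays, beside 1.51% of all tested genes, with differences of -1.14 and -0.97. The difference of Irf8 was -0.50 without KO array 1. Of that list 6 genes were below 0 and 2 above, Vcam1 at 1.52, or 1.29 once WT array 3 was dropped, and Adgre1 at 0.60, or 0.15. The means of the list overlapped, at 8.89 to 9.67 in KO and 8.88 to 9.81 in WT. In the megakaryocyte and platelet list all 5 tested genes were below 0, with a median of -0.51. The means of that list overlapped as well, at 6.24 to 6.51 in KO and 6.22 to 9.11 in WT. The B cell list, with 2 tested genes, had means of 6.78 to 7.09 in KO and 6.62 to 8.57 in WT. For the T and NK cell list, with 3, they were 7.70 to 8.27 and 7.60 to 8.94. Both lists were highest on WT array 3. The erythroid list, with 3 tested genes, had means of 7.33 to 7.75 in KO and 7.08 to 8.35 in WT. In the stromal and endothelial list 1 of 3 tested genes, Tie1, had all KO arrays above all WT arrays, beside 1.58% of all tested genes, with a difference of 0.97. Its row did not pass a stricter filter, above the 60th percentile on at least 5 arrays. The filter used needs only 3 arrays, as many as the KO group has, so nothing is read from Tie1. The part of the cell types of these lists in the Tet1 values was not tested. In sorted bulk cells fewer cells of a type and less RNA per cell cannot be told apart.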

How the data were processed

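The authors deposited 1 table of log2 values for 8 Affymetrix arrays (28846 rows, values from 1.89 to 18.6). The log base was read from that range. RNA extraction with a kit for small samples, biotin labelling and a standard Affymetrix protocol are given per the labels, while the software, background correction, normalization and build were not stated there. The number of arrays limits the precision. Rows were named through the platform annotation (19572 of 22206 transcript rows with 1 symbol, and the other 2634 without a single symbol).

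A gene was tested if its row with the highest mean lay above the median of all rows on at least 3 arrays. KO was compared with WT by limma 3.58.1 in R 4.3.3 (lmFit, eBayes, two-sided, Benjamini-Hochberg over 9920 genes, threshold 0.05). On simulated data, where 200 genes were changed by 2 log2 units, the fit recovered 88.7% of them on average, with 10.2 false calls. The simulated spread came from the WT arrays without WT array 3, so these values do not describe the fit with that array in. Correlations with G1/S genes had exact permutation tests over arrays. Genes, lists and alternatives were chosen with earlier results of these data known. Named genes are the 8 enzymes, Pik3ca, 3 genes of each related list with the smallest unadjusted p, and the genes most correlated with Tet1 (5 over 8 arrays, 5 without WT array 3) or another enzyme gene (1 each). Marker genes, and 2 calls at an unadjusted p, were named after their values were seen. Promoter windows came from RefSeq, build GRCm38.p6. Figures used matplotlib 3.10.9 in Python 3.11.15.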

Additional observations from a re-analysis of the deposited data

Results flagged for a closer look

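In the 5 WT arrays, 51 genes named in the text were searched for 1 array far from the others, by its gap to the nearest array over the range of the group. This found 12 genes, 10 of them through WT array 3. Chance flags about 1 group in 20, but the search was not run over all tested genes. Of the 9920 tested genes, 3620 had their lowest value of the 8 arrays on WT array 3. Nothing is therefore read from the count about the named genes. Genes on 1 array are not independent of each other. Among the enzyme genes, Dnmt1 was 11.75 in WT array 3 against 12.77 to 13.01 in the other WT arrays, and Dnmt3a was 7.86 in WT array 4 against 8.58 to 8.82. The gene 1700109H08Rik was 8.68 in WT array 4 and Wdr81 was 10.16 in WT array 3, but both were named for following Dnmt3a and Dnmt1 over these same arrays, so neither is a separate instance to set against chance. Pik3ca was low in WT array 3, at 8.41 against 9.48 to 9.58. Also low there were Mbd2 at 13.81, Pcna at 15.21, Gadd45b at 8.48, Sin3a at 15.03, Runx1 at 11.52 and B3gnt5 at 9.62, while Mbd6 was high there, at 12.05. Tet1, Tet2, Tet3, Mbd4 and Dnmt3b were not found in this search.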

How the results depend on the processing

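Limma called 0 genes under each of the alternatives run, those with 1 array left out included. The Tet1 difference of -1.45 was -1.44 with median centring, -1.51 with array weights and -1.71 to -1.17 with 1 array left out. No pairing by replicate number was evident, though so few arrays cannot exclude it. Deviations of same-numbered arrays correlated at 0.02, -0.02 and 0.14, and 1 of 3 KO arrays correlated best with its own number. With the replicate number as a block the Tet1 difference was -1.27, and 0 genes were called. Of the other enzyme genes, Mbd4 stayed above 0 under every alternative, and Tet2, Tet3, Dnmt1 and Dnmt3a each crossed 0 with at least 1 array left out. Tet2 was also -0.02 with quantile normalization and -0.15 with array weights, and Tet3 was 0.0013 with the block. The median of the base excision repair list was -0.13 with a stricter filter and -0.02 with array weights. That of the deaminases was -0.15 with the block, -0.04 without a filter, -0.05 with the stricter filter and -0.02 with quantile normalization. Without a filter that of the methionine cycle was -0.16 and that of the imprinted genes -0.02. With array weights the median of the TET partners was 0.06, that of the MLL fusion programme -0.06 and that of the imprinted genes -0.05. The causes were not tested. Of the enzyme genes, Tet1, Mbd4, Dnmt3a and Dnmt3b were too close to the negative control rows for small differences to be read. The same limit holds for Pik3ca and for other named genes. Among these, Xrcc1, Sycp3, Zfp42 and Mtrr lay under the 95th percentile of those rows, 8.85 to 10.9, on every array, and Pbx3 in every KO array.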
